A study of Mus musculus with 10 samples.

Results

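The 7 genes described here encode chromobox and polyhomeotic subunits of canonical Polycomb repressive complex 1 (PRC1): Cbx2, Cbx6, Cbx7, Cbx8, Phc1, Phc2 and Phc3. They were taken by name from the 22359 protein-coding genes of the GENCODE M1 annotation on mm9. Histone marks were mapped by ChIP with a Drosophila S2 cell spike-in in mCherry+ cells sorted from day 4 embryoid bodies, the clumps that mouse embryonic stem cells form as they differentiate. WT cells carried Scl:mCherry, a reporter with mCherry on 1 allele of Scl (Tal1) that still express wild type SCL, the transcription factor that commits mesoderm to blood. Delta cells carried Scl d/d:mCherry, in which both alleles had lost the bHLH domain and the protein was non-functional. Both lines came from J1 cells. The sample labels give a C57Bl/6 and Sv129 strain, with a number that rises from sample to sample and was read as Sv129 throughout. The Delta line was engineered from the WT reporter line, and each was grown from single sorted cells, so the genotypes compare 1 clonal line with another. There were 8 ChIP libraries, 1 for each of 4 marks in each of the 2 genotypes. With 1 library in each group no difference has a replicate check, and no p-value is given. The files were broad peak lists that hold no read depth, and the spike-in scale was not part of them. They therefore show where a mark was called and how far it reached, not whether its level changed across the genome.

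PRC1 attaches ubiquitin to histone H2A, giving H2AK119ub, and PRC2 trimethylates histone H3 to give H3K27me3. In canonical PRC1 a CBX subunit binds H3K27me3 through its chromodomain and brings the complex to chromatin already marked by PRC2. PHC subunits polymerise through their SAM domains and gather Polycomb-bound regions together. Cells exchange the subunits as they develop: Cbx7 is the main CBX protein of embryonic stem cells, while Cbx2 and Cbx8 become prominent as cells differentiate. H3K4me3 marks the start sites of active and poised genes, H3K27ac marks active promoters and enhancers. Bivalent is the name for promoters where H3K4me3 occurs with H3K27me3.

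A gene was called for a mark where at least 1 base of a peak lay 2500 bp or less from a transcription start site (TSS) of its coding transcripts. All 7 genes carried H3K4me3 in both genotypes, a state found in 60.7% of all protein-coding genes in WT and 60.3% in Delta. H3K27me3 was called at 5 of 7 in WT (Cbx2, Cbx7, Cbx8, Phc2 and Phc3) and at 4 in Delta, which lacked the call at Phc3. At a minimum −log10 q of 3 the order turned, with 2 members in WT (Cbx2 and Cbx8) and 3 in Delta (with Cbx7). Over all genes this call was made for 34.8% in WT and 32.7% in Delta. Among genes with H3K4me3 it was made for 53.4% and 50.0%, the closer comparison for a set in which each gene has that mark. All of the H3K27me3 calls lay at genes with H3K4me3, so the bivalent genes were the same 5 in WT and 4 in Delta, against 32.4% and 30.1% of all genes.

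H3K27ac was called at the 3 PHC genes in both genotypes and at none of the 4 CBX genes (19.9% of all genes in WT and 22.8% in Delta, and 32.6% and 37.6% of genes with H3K4me3). H2AK119ub was called at Cbx8 alone in each genotype, against 9.21% of genes in WT and 5% in Delta. Cbx8 was likewise the 1 member with H3K4me3, H3K27me3 and H2AK119ub together, a state of 7.65% of genes in WT and 4.50% in Delta. The 6 H3K27ac calls were weak: 5 had a −log10 q under 3, and requiring 3 left 0 in WT and 1, at Phc2, in Delta. The H2AK119ub calls at Cbx8 were also all under 3 but lay in the upper part of their own lists by q. They were above 65.4%, 66.5% and 88.1% of peaks in WT, and above 80.4% and 97.2% in Delta. A minimum of 3 thus removed most of each H2AK119ub list.

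**Figure D1:**
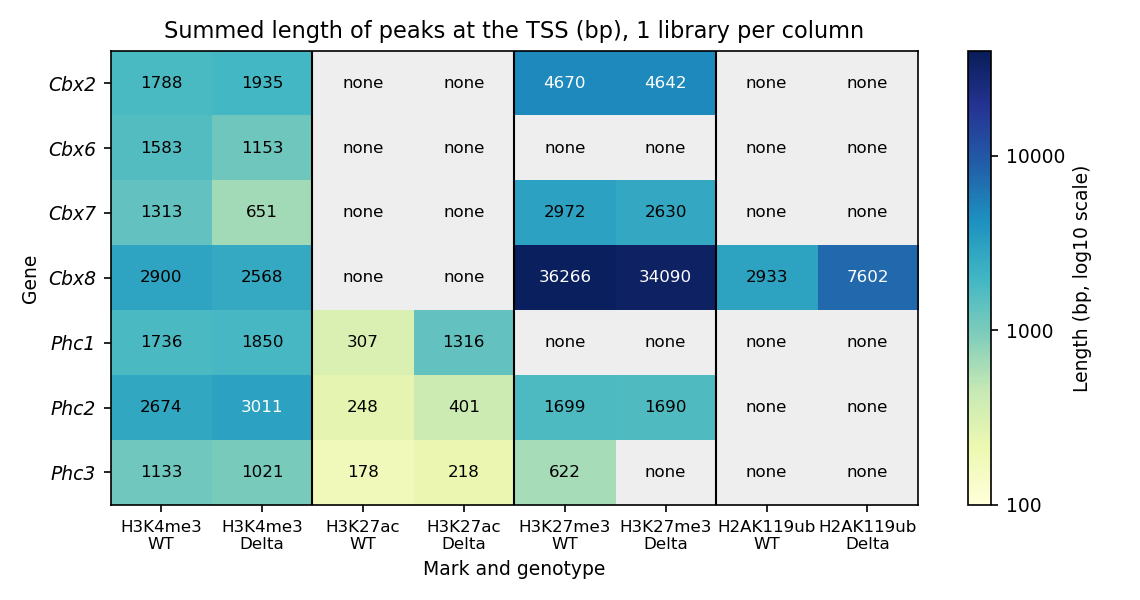
Summed length (bp, colour on a log10 scale) of the peaks near the TSSs of each gene, by mark and genotype, 1 library per column. The H3K27me3 of Cbx8 (36266 bp in WT and 34090 bp in Delta) stands out, H3K27ac is present at the PHC genes alone, and Phc3 has H3K27me3 in WT but not in Delta.

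The sorted cells were checked by the marks on lineage genes. Of 6 mesoderm, blood and vascular genes (Kdr, Etv2, Lmo2, Gata2, Fli1 and Pdgfra), 6 had H3K4me3 in both genotypes, and 5 had H3K27me3 in both. H3K27ac was called at 3 of them in WT (Fli1, Gata2 and Lmo2) and at 0 in Delta. The pluripotency genes Nanog, Zfp42, Esrrb and Klf4 had H3K4me3 at 3 of 4 and H3K27me3 at 2 (Esrrb and Klf4) in both genotypes. They had H3K27ac at 0 in WT and at 1 (Klf4) in Delta. Of 3 neural genes (Pax6, Neurog1 and Neurod1), 2 had H3K4me3 in WT and 3 in Delta, 3 had H3K27me3 in both genotypes, and none had H3K27ac in either. A mark in fewer cells and less of a mark in each cell cannot be told apart in such bulk chromatin, and neither can bivalent alleles and a mixture of cells with 1 mark each. The part of cell composition in the differences below was not tested.

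The promoters themselves are shown for 4 members. Phc2 had marked and unmarked start sites that differed in CpG content, and the other 3 are examples of marked ones. Each run is 200 bases of mm9 that end 1 to 58 bp before the TSS and outside any annotated exon, 5′ to 3′ on the strand of the gene, with each CG in capitals. CG reads the same on both strands and can overlap with no other copy of itself. The 200 bases before the first TSS held at least 1 CG at 90.4% of all protein-coding genes, with a median of 7. Cbx2 (chr11:118884076-118884275, plus strand) had 26, more than 93.7% of genes, and Cbx8 (chr11:118902284-118902483, minus strand) had 18. Phc1 (chr6:122290580-122290779, minus strand) had 7. Of the marked promoters not shown, those of Cbx6 and Cbx7 had 6 each and that of Phc3 had 8. The unmarked promoter of Cbx7, also not shown, had 4, close to its marked one. Phc2 is shown at 3 of its 4 promoters. The distal promoter (chr4:128331782-128331981) had 14 and carried H3K27me3, the second (chr4:128365782-128365981) had 0 and carried no mark, and the internal promoter (chr4:128404625-128404824) had 33 and carried H3K27ac, all on the plus strand.
Cbx2: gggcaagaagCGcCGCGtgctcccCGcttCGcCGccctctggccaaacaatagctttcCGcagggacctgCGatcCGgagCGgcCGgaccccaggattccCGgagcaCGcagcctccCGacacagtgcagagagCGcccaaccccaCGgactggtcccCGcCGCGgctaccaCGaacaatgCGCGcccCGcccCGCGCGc
Cbx8: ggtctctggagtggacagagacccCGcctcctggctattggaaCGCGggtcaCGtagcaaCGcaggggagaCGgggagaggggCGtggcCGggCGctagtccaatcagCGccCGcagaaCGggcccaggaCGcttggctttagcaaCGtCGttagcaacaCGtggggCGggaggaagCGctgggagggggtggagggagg
Phc1: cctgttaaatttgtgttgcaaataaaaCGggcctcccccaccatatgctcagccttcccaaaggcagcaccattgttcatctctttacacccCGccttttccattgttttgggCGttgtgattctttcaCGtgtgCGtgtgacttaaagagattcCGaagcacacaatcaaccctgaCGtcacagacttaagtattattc
Phc2 distal: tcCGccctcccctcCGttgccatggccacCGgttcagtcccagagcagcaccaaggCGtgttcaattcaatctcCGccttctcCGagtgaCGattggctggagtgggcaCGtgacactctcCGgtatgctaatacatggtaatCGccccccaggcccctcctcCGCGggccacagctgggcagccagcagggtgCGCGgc
Phc2 second: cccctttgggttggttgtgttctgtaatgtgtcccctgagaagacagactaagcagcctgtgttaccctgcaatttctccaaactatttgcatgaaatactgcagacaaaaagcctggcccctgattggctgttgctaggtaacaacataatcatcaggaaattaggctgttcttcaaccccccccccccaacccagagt
Phc2 internal: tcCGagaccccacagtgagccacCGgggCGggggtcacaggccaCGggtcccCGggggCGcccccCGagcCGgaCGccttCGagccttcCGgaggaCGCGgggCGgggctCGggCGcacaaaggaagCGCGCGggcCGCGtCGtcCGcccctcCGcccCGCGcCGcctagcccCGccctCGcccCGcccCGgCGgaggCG

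Cbx2 was bivalent in both genotypes, and its repressive mark ended at almost the same base in each. Cbx2 (ENSMUSG00000025577.7, chromosome 11, 118884276 to 118892584, plus strand) has 1 annotated TSS. Its H3K4me3 peak was 1788 bp in WT and 1935 bp in Delta, crossing the TSS and reaching 1483 and 1405 bp into the gene. The H3K27me3 peak lay mainly upstream. It was 4670 bp long in WT and 4642 bp in Delta, ending 458 and 457 bp after the TSS. The edges thus differed by 27 and 1 bp, where the median edge of 7328 paired H3K27me3 peaks over the genome differed by 263 bp. H3K27me3 fold enrichment over input was 5.47 in WT and 6.02 in Delta, higher than 80.6% and 81.6% of the peaks in the same list. Its start was clear of H2AK119ub, whose nearest peak began 11971 bp downstream of the TSS in WT and 11098 bp in Delta. That peak lay between Cbx2 and Cbx8, in no annotated coding gene. The nearest H3K27ac was 276275 bp away in WT, in Eif4a3, and 276486 bp away in Delta.

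Cbx8, which faces Cbx2 tail to tail on chromosome 11 (ENSMUSG00000025578.8, 118897619 to 118902283, minus strand), was the most heavily Polycomb-marked member. One H3K27me3 peak of 36266 bp in WT and 34090 bp in Delta covered the whole gene. It ranked 21 by length among 11345 peaks in WT and 26 among 10881 in Delta. Its fold enrichment was 10.2 and 11.5, higher than 99.6% and 99.8% of the peaks in its list. The domain began 963 bp past the end of Cbx2 in WT and 948 bp past it in Delta. On the far side it stopped at 118929813 in WT and at 118927622 in Delta. A separate Delta peak of 1027 bp, from 118928988 to 118930014, lay over the WT end. No other protein-coding gene of the annotation lay under the domain, so most of its length is intergenic sequence upstream of Cbx8.

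Inside the domain Cbx8 kept H3K4me3 at its start. The peak over the TSS was 1570 bp in WT and 1697 bp in Delta, with fold enrichments of 6.75 and 6.01. A second H3K4me3 peak within the gene was 1330 bp in WT and 871 bp in Delta. H3K27ac was called nowhere in the domain, and its nearest peak was 258268 bp from Cbx8 in WT and 258479 bp in Delta. Another H3K4me3 peak upstream of Cbx8 was found in both genotypes. It was 1191 bp in WT (fold 5.78, higher than 42.0% of its list) and 644 bp in Delta (fold 5.14, higher than 34.9%). Each genotype also had 1 weak H3K4me3 peak in the domain without a counterpart in the other. In WT it was 218 bp, upstream of Cbx8 (fold 3.32, higher than 6.05% of its list), and in Delta 1367 bp, between Cbx2 and Cbx8 (fold 3.51, higher than 6.13%).

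H2AK119ub was scattered through the domain rather than covering it. The long H3K27me3 peaks of the genotypes together spanned 36281 bp. Within that span 9 H2AK119ub peaks covered 21065 bp (58.1%) in WT and 6 covered 17940 bp (49.4%) in Delta. Of these bases 13955 were covered in both genotypes, which is 66.2% of the WT bases and 77.8% of the Delta bases. The longest WT peak, 12310 bp, overlapped 3 separate peaks in Delta. The complete H2AK119ub lists held 4922 peaks in WT and 2388 in Delta. Near the Cbx8 TSSs the direction depended on the measure. The summed length of whole peaks was 2933 bp in WT (340, 2202 and 391 bp) and 7602 bp in Delta (2259 and 5343 bp), a log2 ratio of Delta over WT of 1.37, above 93.2% of 925 genes, whose median was -0.45. The ratio of Cbx8 was 0.385 for the bases inside the window and -0.181 once peaks up to 3000 bp apart were joined. The peak across the gene itself was nearly equal in length, 2202 bp in WT and 2259 bp in Delta. Its fold enrichment was 3.57 in WT, higher than only 40.6% of its list, and 4.24 in Delta, higher than 78.6%.

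**Figure D2:**
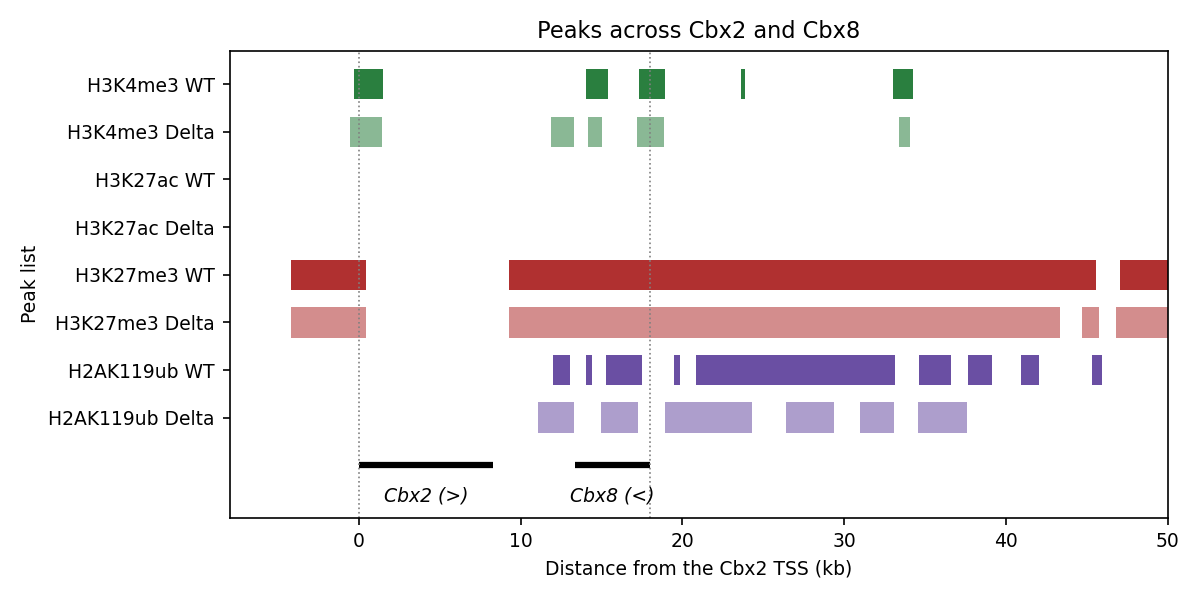
Peaks of the 8 lists across Cbx2 and Cbx8, as distance from the Cbx2 TSS (kb), with WT in full and Delta in lighter colour, black bars for the genes and dotted lines at their first TSSs. Cbx2 has a short H3K27me3 peak that ends just inside the gene, while 1 long domain covers Cbx8 and the sequence upstream of it with broken H2AK119ub.

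Cbx7 was also bivalent, and it held the largest shortening of H3K4me3 among the members. Cbx7 (ENSMUSG00000053411.9, chromosome 15, 79746237 to 79801549, minus strand) has 2 promoters. The upstream promoter, with start sites at 79801548 and 79801549, had no peak of any of the 4 marks in either genotype. The promoter 37220 bp downstream of it, with start sites from 79762970 to 79764329, had all of the TSS peaks. H3K4me3 measured 1313 bp in WT and 651 bp in Delta, a log2 ratio of -1.01. Only 2.65% of 13324 genes with H3K4me3 in both genotypes had a lower ratio. The shorter Delta peak came from its upstream edge, which moved by 871 bp, further than 98.6% of H3K4me3 edges. Its rank by fold enrichment was close in the 2 lists, with 5.44 (higher than 37.8% of the list) in WT and 5.29 (higher than 37.5%) in Delta. H3K27me3 lay over the same promoter, on 2972 bp in WT and 2630 bp in Delta, where the peak stopped short of the first start site at 79764329, with fold enrichments of 3.59 and 4.12. The WT call had a −log10 q of 2.98, just under the alternative minimum of 3, against 4.20 in Delta.

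A single H3K27ac peak lay in an intron of Cbx7, between its promoters and away from both. It began 15697 bp upstream of the nearest TSS in WT and 16151 bp upstream in Delta. The WT peak was 1968 bp, longer than 97.6% of its list, and the Delta peak was 367 bp, longer than 32.7%. Fold enrichment was 4.40 in WT, higher than 63.7% of its list, and 4.94 in Delta, higher than 77.3%. The −log10 q was 4.01 in WT and 3.85 in Delta. This peak lay outside the TSS window. Cbx7 therefore joins the PHC genes, giving 4 members with H3K27ac, only where the gene body is included (20.8% of all genes in WT and 23.6% in Delta). An intronic H3K4me3 peak of 387 bp in WT and 457 bp in Delta, downstream of the main promoter, was among the weakest in its list, higher in fold than 8.33% and 3.22% of peaks. The nearest H2AK119ub lay in Pdgfb, 38513 bp away in WT and 42364 bp in Delta.

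Cbx6 carried H3K4me3 and nothing else, a state of 12.5% of all protein-coding genes when it must hold in both genotypes. Cbx6 (ENSMUSG00000089715.3, chromosome 15, 79654326 to 79665118, minus strand) had 1 peak of 1583 bp in WT and 1153 bp in Delta, with fold enrichments of 6.77 and 5.84. Both peaks covered a start site that Cbx6 shares with Npcd, a read-through gene on the same strand, so the call cannot be given to either gene alone. Neither reached the first Cbx6 TSS, the WT peak beginning 62 bp after it and the Delta peak 286 bp. The nearest H3K27me3 was 20109 bp away in WT and 21010 bp in Delta, within Npcd. Although Cbx6 and Cbx7 lie close together on chromosome 15, the H3K27me3 peaks of Cbx7 did not reach Cbx6.

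Phc1 carried H3K4me3 and H3K27ac, with no H3K27me3 or H2AK119ub near it. Phc1 (ENSMUSG00000040669.7, chromosome 6, 122267749 to 122290579, minus strand) has 12 start sites in 1 promoter. H3K4me3 measured 1736 bp in WT and 1850 bp in Delta, with fold enrichments of 6.17 and 6.44. H3K27ac was 307 bp in WT and 1316 bp in Delta, a log2 ratio of 2.10 that was above 98.3% of 3672 genes with H3K27ac in both genotypes. The Delta peak began 56 bp after the first TSS and ran to 1371 bp, while the WT peak ran from 129 to 435 bp. Both H3K27ac calls were weak, at −log10 q of 2.03 in WT and 2.13 in Delta, and their fold enrichments of 3.80 and 4.13 were higher than 30.7% and 35.9% of their lists. The nearest H3K27me3 was 144998 bp away in WT and 144895 bp in Delta, in Rimklb.

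Phc2 carried H3K27me3 at its distal promoter and H3K27ac at an internal one, with H3K4me3 at both. Phc2 (ENSMUSG00000028796.10, chromosome 4, 128331982 to 128430125, plus strand) has 4 promoters, of which the middle pair, 34057 and 50258 bp into the gene, had no peak of any mark. The distal promoter, at 128331982, was bivalent in both genotypes. Its H3K4me3 peak was 829 bp in WT and 706 bp in Delta. Its H3K27me3 peak was 1699 bp in WT, from 309 to 2007 bp after the TSS, and 1690 bp in Delta, from 299 to 1988 bp. These edges differed by 10 and 19 bp, closer than all but 2.80% and 5.76% of paired H3K27me3 edges.

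The internal promoter of Phc2, 72847 bp downstream, had H3K4me3 and H3K27ac and no H3K27me3. H3K4me3 there was 1845 bp in WT and 2305 bp in Delta, with fold enrichments of 7.47 and 7.04. H3K27ac was 248 bp in WT and 401 bp in Delta. Its rank differed between the lists: a fold of 3.29 that was higher than 4.38% of peaks in WT, and 4.57, higher than 62.8%, in Delta. The gap between the H3K27ac and H3K27me3 peaks of Phc2 was 70912 bp in WT and 70891 bp in Delta. Of 2354 genes with H3K4me3, H3K27ac and H3K27me3 in WT, the last pair of peaks overlapped in 92.1%, was over 10 kb apart in 1.02%, and was further apart than in Phc2 in 7 genes. In Delta the values were 90.1%, 1.71% and 19 of 2283 genes. These counts were not limited to genes with promoters far apart, and a gene without them could hardly show such a gap. The gap of Phc2 followed the 72847 bp between its promoters. Its place among these genes therefore reflects gene structure too and is no test. Among 4460 genes with more than 1 promoter, 10 (0.224%) had a bivalent promoter and a separate one with H3K4me3 and H3K27ac in both genotypes. That definition was written after the values of Phc2 were seen, so the share describes how rare the arrangement was and is no test of it. The H3K27me3 calls had −log10 q of 2.65 and 2.92, so the arrangement was not called at a minimum of 3.

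**Figure D3:**
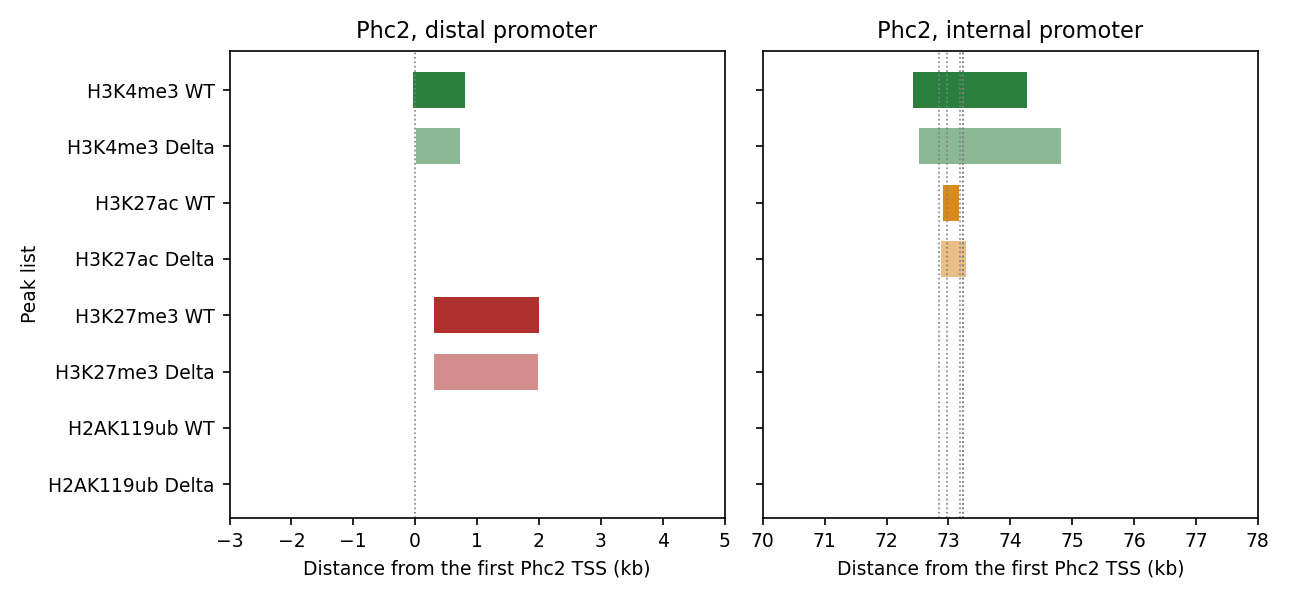
Peaks of the 8 lists at the distal (left) and internal (right) promoters of Phc2, as distance from its first TSS (kb), with WT in full and Delta in lighter colour and dotted lines at TSSs. H3K27me3 is at the distal promoter and H3K27ac at the internal one, in both genotypes, with H3K4me3 at each.

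Phc3 was the member whose calls differed between the genotypes. Phc3 (ENSMUSG00000037652.8, chromosome 3, 30798217 to 30868337, minus strand) had the strongest H3K4me3 of the set. Its peak had a fold enrichment of 12.7 in WT, higher than 99.2% of the list, and 9.09 in Delta, higher than 93.8%, although it was short, at 1133 and 1021 bp. H3K27ac lay inside it over 178 bp in WT, where no peak of the list was shorter, and over 218 bp in Delta. In WT a 622 bp H3K27me3 peak, from 101 to 722 bp after the nearest TSS, spanned that H3K27ac. Its fold was 3.32, higher than 29.0% of the list, and its −log10 q was 2.71. In Delta no H3K27me3 was called within 112167 bp of a Phc3 TSS, and the nearest peak was in Gpr160. An H3K27me3 call in WT alone was made for 7.04% of all genes, and at a minimum −log10 q of 3 the WT peak was not called either.

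Between the genotypes, then, presence or absence of a peak was nearly the same for these genes. Of 28 pairs of gene and mark, 15 had a peak in both genotypes, 1 in WT alone, 0 in Delta alone and 12 in neither. For H3K4me3 none of 7 members had a peak in 1 genotype alone, against 1.06% of genes in WT alone and 0.684% in Delta alone. For H3K27ac it was none, against 3.43% and 6.37%, and for H2AK119ub none, against 5.08% and 0.863%. For H3K27me3 it was Phc3 in WT, and none in Delta alone, against 4.91% of genes. With 7 genes, shares of this size would give few or no calls. At a minimum −log10 q of 3 the Phc3 pair was gone and 2 others had a peak in Delta alone, H3K27me3 at Cbx7 and H3K27ac at Phc2.

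The median log2 ratio of summed length, Delta over WT, was -0.15 for H3K4me3 over 7 members and -0.11 over 13324 genes. For H3K27me3 it was -0.05 over 4 members and 0.01 over 6216 genes. For H3K27ac it was 0.69 over 3 members and 0.02 over 3672 genes. H3K27ac was longer in Delta at Phc1, Phc2 and Phc3 alike, but each WT peak was among the short ones, from 178 to 307 bp in a list with a median of 541 bp. The ranks within each list kept the order Cbx8, Cbx2, Cbx7 and Phc2 for H3K27me3 in both genotypes. For H3K27ac Phc3 was highest in WT (48.0%) and lowest in Delta (7.80%), and Phc2 was at 4.38% and 62.8%. These are ranks of weak calls in separate lists of 4571 and 5269 peaks, 1 library each, and are given as values alone.

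**Figure D4:**
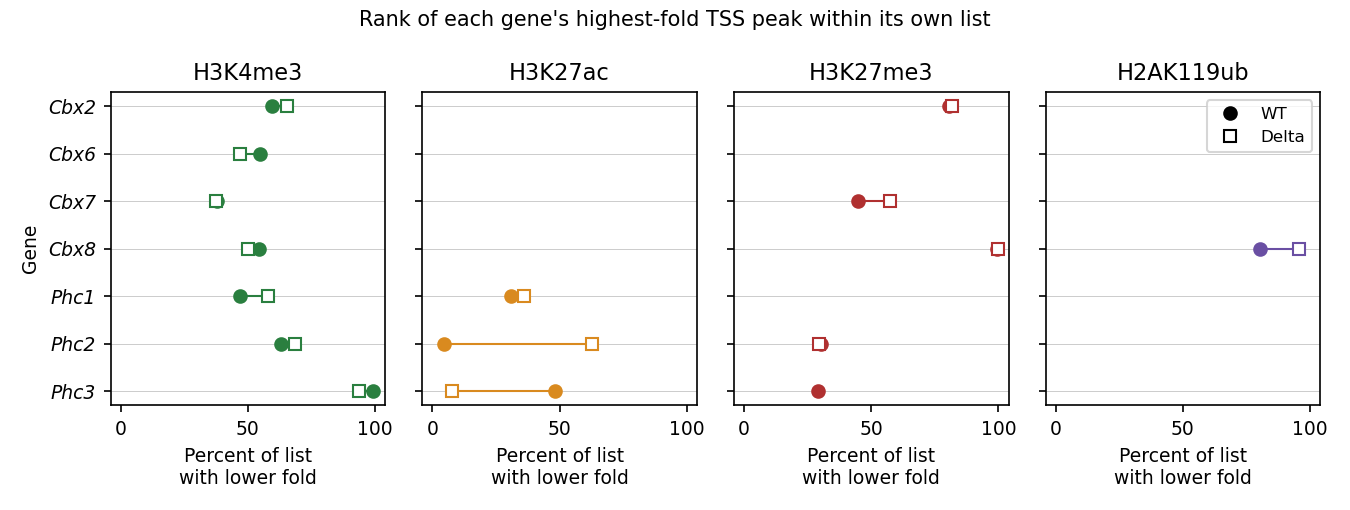
For each gene, the percent of peaks in the same list with a lower fold enrichment than its highest-fold TSS peak, for WT (filled circles) and Delta (open squares), 1 library each. For H3K27me3 Cbx8 is at 99.6% and 99.8% and Cbx7 at 44.9% and 57.4%, and Phc3 has a WT rank alone.

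CpG content of the start sites, which the choice of genes did not use, was taken over 500 bp on each side of the first TSS of each promoter. The observed over expected CpG ratio was 1.00 for Cbx2, higher than 98% of 22356 genes. It was 0.671 for Cbx8 and 0.647 for Cbx6, and lower for the marked Cbx7 promoter (0.507) and for Phc1 (0.505). Phc3 had 0.755. Over all genes the median was 0.553, over genes with H3K4me3 and H3K27me3 in WT 0.758, and over genes with H3K4me3 and H3K27ac but no H3K27me3 0.804. Within Phc2 the 2 marked promoters had 0.808 and 0.892 and the 2 unmarked promoters 0.235 and 0.245, close to the median of 0.196 for genes without H3K4me3. The unmarked Cbx7 promoter, at 0.456, was less far from the marked one.

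**Figure D5:**
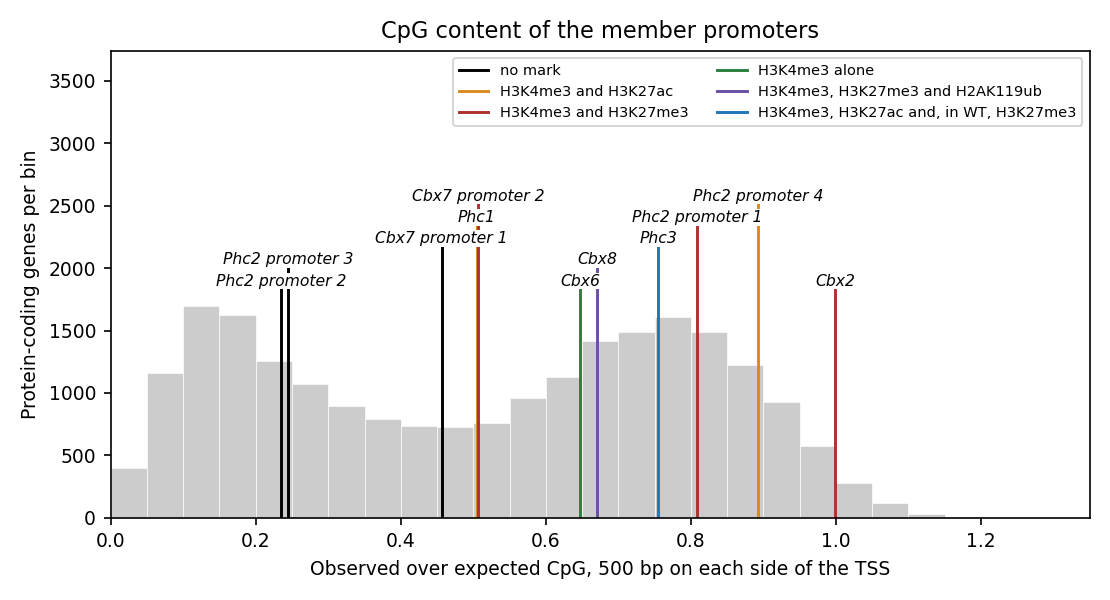
Observed over expected CpG within 500 bp of the TSS for all protein-coding genes (grey bars, number of genes per bin) and for each member promoter (lines, coloured by the marks called there in either genotype). The unmarked Phc2 promoters 2 and 3 lie at 0.235 and 0.245, and the marked promoters 1 and 4 at 0.808 and 0.892.

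The other Polycomb genes give the setting for these calls. Of 12 other PRC1 genes (the RING1 and PCGF subunits and their partners), 12 had H3K4me3 and 7 H3K27ac in each genotype. The 7 included Pcgf5 in WT alone and Yaf2 in Delta alone. H3K27me3 was called at 11 in WT and 9 in Delta. H2AK119ub was called at 2 (Bmi1 and Kdm2b) in WT and 1 (Bmi1) in Delta. Of 11 PRC2 genes, 11 had H3K4me3 in each genotype, 7 had H3K27ac in WT and 8 in Delta, and 5 had H3K27me3 in each. The 5 included Ezh2 in WT alone and Jarid2 in Delta alone. H2AK119ub was called at Phf19 in WT and at none in Delta. The 3 HP1 chromobox genes, Cbx1, Cbx3 and Cbx5, which encode heterochromatin proteins outside Polycomb, had H3K4me3 and H3K27ac in both genotypes. Their H3K27me3 was called at 3 in WT and at 1 (Cbx3) in Delta. A peak in 1 genotype alone was found for 5 of 48 pairs of gene and mark in the other PRC1 genes, 4 of 44 in the PRC2 genes, and 2 of 12 in the HP1 genes.

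The combinations of calls were shared with many other genes. The 8 calls of Cbx2 and Cbx7 were identical, and 9.74% of all protein-coding genes had the same 8. The calls of Phc2 were found in 5.60% of genes, those of Phc1 in 5.20%, those of Cbx8 in 3.48% and those of Phc3 in 3.21%.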

How the data were processed

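The 8 ChIP-Rx libraries and 2 inputs came from the day 4 mCherry+ cells of the 2 lines, and no peak list of the inputs was used here. The authors aligned reads to mm9 and dm3 with Bowtie and called broad peaks in each library with MACS2 2.0.10 against the input of that genotype. Per the methods, spike-in factors scaled their signal tracks, and the deposited peak calls hold no such factor. Each deposited list gives a display score, a fold enrichment over input (a ratio), and −log10 p-values and −log10 q-values, which the authors' peak caller computed. The lowest deposited −log10 q was 1.30, the lists hold no read depth, and fold enrichment was compared by rank within a list.

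Peaks were matched to TSSs of 22359 protein-coding genes (NCBIM37, the mm9 build, with GENCODE M1) in Python 3.11.15 with numpy 2.4.6, and TSSs up to 2500 bp apart were joined as 1 promoter. Gene calls were checked with bedtools 2.31.1 over 8 lists (0 genes differing) and tested on simulated data with 200 planted peaks (0 differing). All members and every peak of each were described, and other lists were given as counts. The members, gene lists and tests were chosen with earlier results of these data known. The neural list lacks Sox1, which was not used here. A further marker list is not reported here.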

Additional observations from a re-analysis of the deposited data

How the results depend on the processing

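Of 122 alternatives, 14 moved a value, 2 reversed it and 106 did neither. A move was a count changed by over 1.5 times or a median log2 ratio changed by over 1 SD of the members. For H2AK119ub, with its 1 member, any amount counted. Each alternative is 1 result under 1 changed setting, so many share a setting and are not separate analyses. Some could not change: a fold minimum of 3 removes no Delta H2AK119ub peak, the lowest fold there being 3.13. With a minimum −log10 q of 3, H3K27ac was called at 0 members in WT and 1 in Delta, H3K27me3 at 2 in WT and 3 in Delta, the bivalent state at 2 in WT and 3 in Delta, H2AK119ub at 0 in WT and 0 in Delta, and the state of 3 marks at 0 in WT and 0 in Delta, while pairs with a peak in 1 genotype alone became 2, both in Delta (Cbx7 H3K27me3 and Phc2 H3K27ac) in place of Phc3 H3K27me3 in WT. Requiring 500 bp of peak in the window left H3K27ac at 0 members in WT and 1 in Delta, and made such pairs 2 (Phc3 H3K27me3 in WT and Phc1 H3K27ac in Delta). For H2AK119ub the minimum −log10 q of 3 removed at least 88.1% of the WT list and 97.2% of the Delta list. Its 0 therefore does not mark the Cbx8 calls as weak within their lists. The log2 ratio of H2AK119ub length (Cbx8) was 0.385 for bases in the window and 1.79 with a TSS distance of 1000 bp. It was -0.181 with peaks up to 3000 bp apart joined. Joining also turned the median H3K4me3 ratio to 0.092. With the 5′-most TSS alone, Cbx7 lost H3K4me3 and H3K27me3 and Phc2 lost H3K27ac in both genotypes, since their marked promoters lie downstream. The cause of the other changes was not tested. No paired analysis was possible because each group had 1 library. The lists hold no read depth, so an absent peak shows only that none was called.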
